A study of Mus musculus with 5 samples.

Results

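The 10 genes described here encode the core of the mouse Hippo pathway: the kinases Stk3, Stk4 and Lats1, the scaffold Sav1, the coactivators Yap1 and Wwtr1, and the transcription factors Tead1, Tead2, Tead3 and Tead4. They were chosen by symbol from the 22287 genes of the deposited expression table, and each symbol matched 1 row. RNA sequencing had been done on liver tumours of C57BL/6 mice. The samples were 3 lnc-CTHCC-/- tumours (KO), which lack a long non-coding RNA, and 2 wild-type tumours (WT). Both genotypes had been treated for 5 months with DEN, a carcinogen that damages liver DNA, and CCl4, a toxicant that injures hepatocytes. Nothing in the labels ties the tumours to separate animals, and the spread between libraries may be technical. Since YAP1 transcription is the subject of published work on this RNA, the comparison of KO with WT asks whether the transcripts of this kinase module and its effectors differ in tumours without it.

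In the Hippo pathway, the kinases Stk3 and Stk4 (also called MST2 and MST1) act with the scaffold Sav1 to activate the LATS kinases. LATS kinases phosphorylate the coactivators YAP and TAZ (the products of Yap1 and Wwtr1), which keeps them in the cytoplasm or leads to their breakdown. Unphosphorylated YAP and TAZ enter the nucleus and bind the TEAD factors, which carry the DNA-binding domain. In mouse liver, loss of the kinases or forced activity of YAP enlarges the organ and leads to tumours. Much of this control acts on the proteins and is not seen in transcript levels.

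The values were FPKM (fragments mapped to a gene, divided by the gene's length and by the size of the library). They are per length, so that levels of different genes can be set side by side. The depth was not stated. The low values of genes with a single exon fell on steps that correspond to about 27900000 to 28100000 fragments in the KO libraries, 23500000 in WT 1 and 27900000 in WT 2. Between 58.1% and 90.9% of these values lay within 0.15 of a whole fragment, where 30% would if they were spread evenly. The step was chosen for the best match over 22 to 41 genes per library. That choice by itself tends to raise the share above 30%, so the depths are estimates. Hnf4a, a transcription factor that defines hepatocytes, was at 116 to 131 FPKM in KO and 114 to 125 FPKM in WT, and it is 1 of the 6 hepatocyte markers given further on. The median FPKM over the genes tested was 5.99 to 6.73 in the KO libraries, 5.41 in WT 1 and 6.64 in WT 2, so that WT 1 stood apart. lnc-CTHCC itself was not analysed here, and genotypes are as labelled.

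Yap1 was the most abundant of the 10 transcripts, with a mean of 14.6 FPKM over the 5 libraries, and lay above all others in every library. Wwtr1 came next at 7.11 FPKM and was above Sav1 in 5 of 5 libraries. Sav1, at 4.70 FPKM, was above Lats1, at 4.01 FPKM, in 4 of 5. Lats1 and Stk4, at 4.0 FPKM, could not be ordered, since Lats1 was the higher in only 2 of 5 libraries. Stk4 was above Stk3, at 2.92 FPKM, in 5 of 5 libraries. The TEAD genes had the lowest means: Tead3 of 2.03 FPKM, Tead1 of 1.4, Tead2 of 1.29 and Tead4 of 0.97 FPKM. Stk3 was above Tead3 in 4 of 5 libraries, and Tead2 was above Tead4 in 4 of 5. Tead1 and Tead2 could not be ordered either, with Tead1 higher in 3 of 5 libraries. Among the 10132 genes with a mean of at least 1 FPKM, which were those tested, 73.2% lay at or below the level of Yap1 and 54.4% at or below that of Wwtr1. For Tead2 the share was 4.97%.

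**Figure D1:**
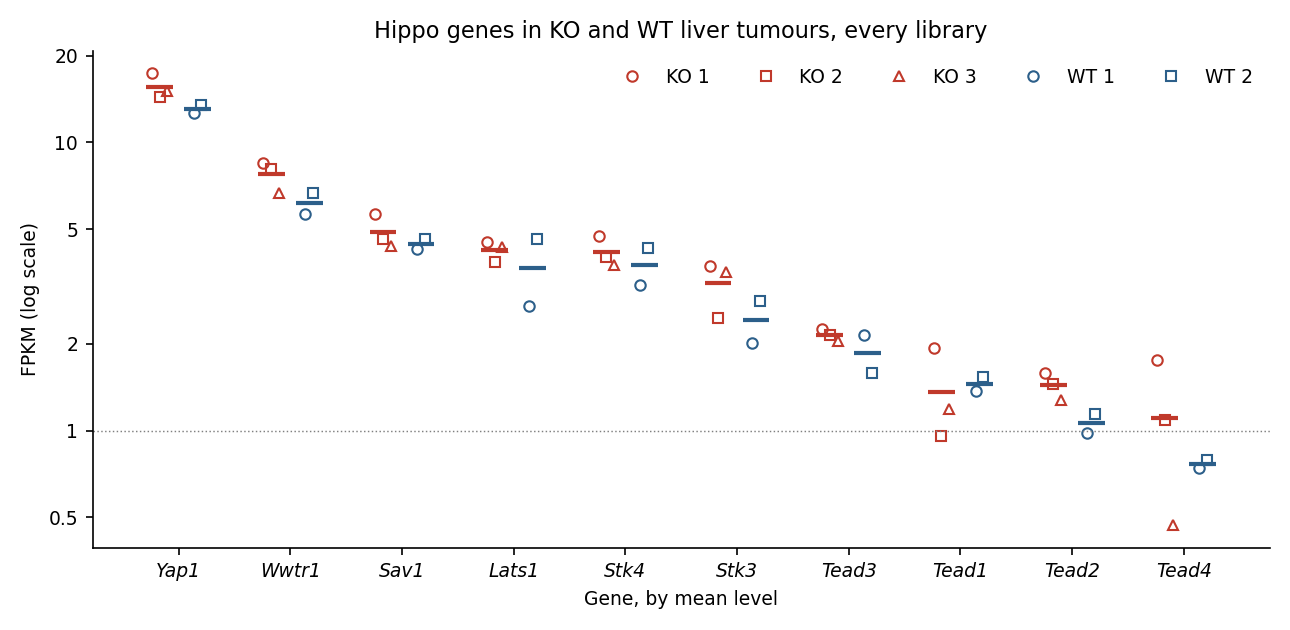
FPKM on a log scale of the 10 Hippo genes in each library, with KO (red) left of WT (blue) and a bar at the mean of each genotype. The dotted line marks 1 FPKM, the lowest mean over the 5 libraries at which a gene was tested; Yap1 lies highest and Tead4, with a mean of 0.97 FPKM, lowest.

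None of the 9 members tested differed between KO and WT tumours past the threshold (limma adjusted p under 0.05), although 9 of the 10 had a higher mean in KO. Wwtr1 was at a ratio of 1.26, Stk3 of 1.34 and Tead2 of 1.36 of the KO mean over the WT mean, and Yap1 of 1.19. Tead1 had the lower mean in KO. Every KO value exceeded both WT values for 2 members, Yap1 and Tead2, and for none were all KO values the lower ones. Of all genes tested, 9.78% had every KO value above both WT values and 5.29% had every one below them. A log2 difference above 0 was found in 61.4% of all genes tested and in 8 of the 9 members tested. By limma, a linear model with a variance shared across genes, 1 gene of 10132 (0.00987%) passed an adjusted p of 0.05, the transcription factor Onecut1, and no gene was lower past it. At an unadjusted p under 0.05 there were 327 genes (3.23%), none of them a member; the members' unadjusted p ran from 0.167 to 0.727, with an adjusted p of 0.999 for each.

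The coactivators Yap1 and Wwtr1 were the most abundant members. Values are given below in the order of the replicate numbers, and positions are those of GRCm38, the assembly of mm10. Yap1 (ENSMUSG00000053110, chromosome 9, 7931999 to 8004596, minus strand) was at 17.4, 14.4 and 15.04 FPKM in KO tumours and at 12.6 and 13.5 FPKM in WT tumours. Its lowest KO library, KO 2, was 14.4 FPKM and so close to WT 2 at 13.5 FPKM. The log2 difference of 0.24, on the scale of FPKM + 1, had a 95% interval of -0.16 to 0.63, which as a ratio runs from 0.896 to 1.55. Wwtr1, which encodes TAZ (ENSMUSG00000027803, chromosome 3, 57455649 to 57575910, minus strand), was at 8.50, 8.09 and 6.65 FPKM in KO and at 5.64 and 6.66 FPKM in WT. KO 3 and WT 2 were level, while KO 1 and KO 2 exceeded both WT values. Its log2 difference was 0.29 (95% interval -0.15 to 0.72), and 0.19 without WT 1.

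The balance between the coactivators did not separate the genotypes. Wwtr1 was at 0.490, 0.561 and 0.442 of Yap1 in the KO libraries and at 0.447 and 0.493 in the WT libraries. Yap1 made up 34.0% ± 1.06 (SD, n = 3) of the summed FPKM of the 10 genes in KO and 33.9% ± 2.03 (SD, n = 2) in WT. Yap1 and Wwtr1 together were at 25.9, 22.5 and 21.7 FPKM in KO and at 18.2 and 20.2 FPKM in WT, so that this sum did not overlap. No background was computed for sums. Among single genes tested, 9.78% had every KO value above both WT values. The sum of Yap1 and Wwtr1 was 3.44 to 4.35 times the summed level of the 4 TEAD genes in KO and 3.49 to 3.99 times in WT, which overlapped.

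The TEAD genes encode the DNA-binding partners of YAP and TAZ and differed among themselves in how they varied. Tead2 (ENSMUSG00000030796, chromosome 7, 45215753 to 45233644, plus strand) had 1.58, 1.45 and 1.28 FPKM in KO and 0.98 and 1.14 FPKM in WT. These values did not overlap, and the log2 difference was 0.24 (95% interval -0.15 to 0.64). Tead1 (ENSMUSG00000055320, chromosome 7, 112679318 to 112906807, plus strand) had 1.93, 0.96 and 1.19 FPKM in KO and 1.37 and 1.54 FPKM in WT. KO 1 was its highest and KO 2 its lowest library, with the WT libraries between them (log2 difference -0.077, 95% interval -0.56 to 0.41), and the difference was 0.046 without KO 2 and -0.24 without KO 1. Tead3 (ENSMUSG00000002249, chromosome 17, 28331671 to 28350817, minus strand) was at 2.25, 2.14 and 2.05 FPKM in KO and at 2.14 and 1.59 FPKM in WT, with a log2 difference of 0.14 (95% interval -0.28 to 0.56). WT 2 alone was low, and without it the difference was 0.0026, against 0.28 without WT 1.

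Tead4 (ENSMUSG00000030353, chromosome 6, 128224288 to 128300823, minus strand) had a mean under 1 FPKM and was the 1 member left out of the test. It was at 1.76, 1.09 and 0.47 FPKM in KO and at 0.74 and 0.79 FPKM in WT, so the KO libraries spanned 3.74-fold and enclosed both WT libraries. If FPKM had been computed over all annotated exons of Tead4, 0.47 FPKM in KO 3 would stand for about 47 fragments and 1.76 FPKM in KO 1 for about 178. The summed TEAD level was 7.52, 5.64 and 4.99 FPKM in KO and 5.23 and 5.06 FPKM in WT. KO 1 was the high library in that sum. Within the sum, the share of Tead1 was 25.7%, 17.02% and 23.9% in KO and 26.2% and 30.4% in WT. It was lower in every KO library, with KO 1 close to WT 1, while the FPKM of Tead1 overlapped between the genotypes. No background of like shares was computed for other genes, so this separation cannot be set against one. The shares of Tead2, Tead3 and Tead4 overlapped between the genotypes. No p-value was computed for these shares, since an exact permutation test of 3 libraries against 2 cannot go below 0.1.

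**Figure D2:**
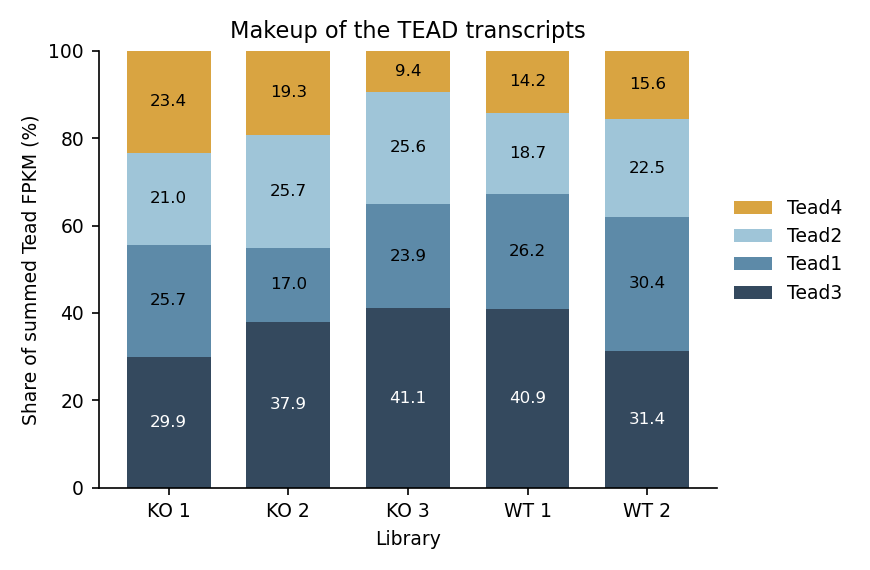
Share (%) of Tead1, Tead2, Tead3 and Tead4 in the summed TEAD FPKM of each library, with the KO libraries left of the WT libraries. Tead3 holds 29.9% to 41.1% and Tead4 holds 9.42% (KO 3) to 23.4% (KO 1).

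TEAD factors recognise the letters GGAATG, which read CATTCC on the opposite strand, and some members carry these letters upstream of their own start site. RefSeq promoter windows (GRCm38.p6, 250 bases before to 50 after a start) were found for 7 members: Yap1, Wwtr1, Tead2, Tead3, Lats1, Stk4 and Sav1. The letters, searched on both strands, occurred in a window of 4 of these 7 genes, and in 16.6% of all 27025 genes with a window. A match of letters is a description of the sequence and does not show that a TEAD factor binds there. The sequences below, all on the minus strand of the chromosome and read 5′ to 3′ along the gene, show the 4 genes with the matching letters in capitals. They place the match of the TEAD partners Yap1 and Wwtr1 beside that of a TEAD gene and of the kinase scaffold.
Yap1, chr9:8004712-8004757: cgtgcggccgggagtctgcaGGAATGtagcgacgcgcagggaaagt
Wwtr1, chr3:57576021-57576066: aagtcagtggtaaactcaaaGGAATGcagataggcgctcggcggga
Tead3, chr17:28350962-28351007: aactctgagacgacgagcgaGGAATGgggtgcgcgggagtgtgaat
Sav1, chr12:69987083-69987128: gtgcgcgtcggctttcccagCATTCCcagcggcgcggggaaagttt
The letters end 135 bases before the start site of Yap1, 130 before the nearer of the start sites of Wwtr1, 176 before a start site of Tead3 and 100 before that of Sav1. A second window of Tead3 holds CATTCC at 117 and at 108 bases before its start site.

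Of the kinases, Stk3 (ENSMUSG00000022329, chromosome 15, 34875496 to 35178921, minus strand) had the largest log2 difference among the members tested when all 5 libraries were used. It was at 3.73, 2.46 and 3.55 FPKM in KO and at 2.02 and 2.82 FPKM in WT. KO 2 lay between the WT libraries, and the log2 difference of 0.31 had a 95% interval of -0.19 to 0.80. It was 0.14 without WT 1, where that of Tead3 was 0.28, and 0.48 without WT 2, where that of Lats1 was 0.50. Its paralog Stk4 (ENSMUSG00000018209, chromosome 2, 164070322 to 164155524, plus strand) had 4.74, 4.01 and 3.75 FPKM in KO and 3.21 and 4.29 FPKM in WT, with a log2 difference of 0.13 (95% interval -0.33 to 0.58) that was -0.039 without WT 1, 0.29 without WT 2 and 0.048 without KO 1. Stk3 was at 0.787, 0.613 and 0.947 of Stk4 in KO and at 0.629 and 0.657 in WT, so that KO 2 was the lowest of all and the others lay above WT.

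Sav1, which holds these kinases and LATS together (ENSMUSG00000021067, chromosome 12, 69965012 to 69987002, minus strand), stayed between 4.26 and 5.64 FPKM. It was at 5.64, 4.62 and 4.38 FPKM in KO and at 4.26 and 4.62 FPKM in WT, with KO 2 and WT 2 at the same value (log2 difference 0.11, 95% interval -0.32 to 0.54). The difference was 0.016 without KO 1, 0.17 without KO 3 and 0.059 without WT 1. Lats1, the kinase that phosphorylates YAP and TAZ (ENSMUSG00000040021, chromosome 10, 7681214 to 7716460, plus strand), had values of 4.53, 3.85 and 4.32 FPKM in KO. It was at 2.70 and 4.64 FPKM in WT, so that WT 1 was the lowest and WT 2 the highest of the 5 libraries. Its log2 difference of 0.19 (95% interval -0.32 to 0.70) was -0.11 without WT 1 and 0.50 without WT 2. Its paralog Lats2, which belongs to the other core genes below, was at 5.00, 3.89 and 3.66 FPKM in KO and at 3.22 and 2.97 FPKM in WT. The summed level of Lats1 and Lats2 was 9.53, 7.74 and 7.98 FPKM in KO and 5.92 and 7.61 FPKM in WT. This sum did not overlap, with KO 2 close to WT 2, while Lats1 alone overlapped. The summed level of Stk3 and Stk4 overlapped, at 8.47, 6.47 and 7.30 FPKM in KO and 5.23 and 7.11 FPKM in WT. No background was computed for sums of genes.

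**Figure D3:**
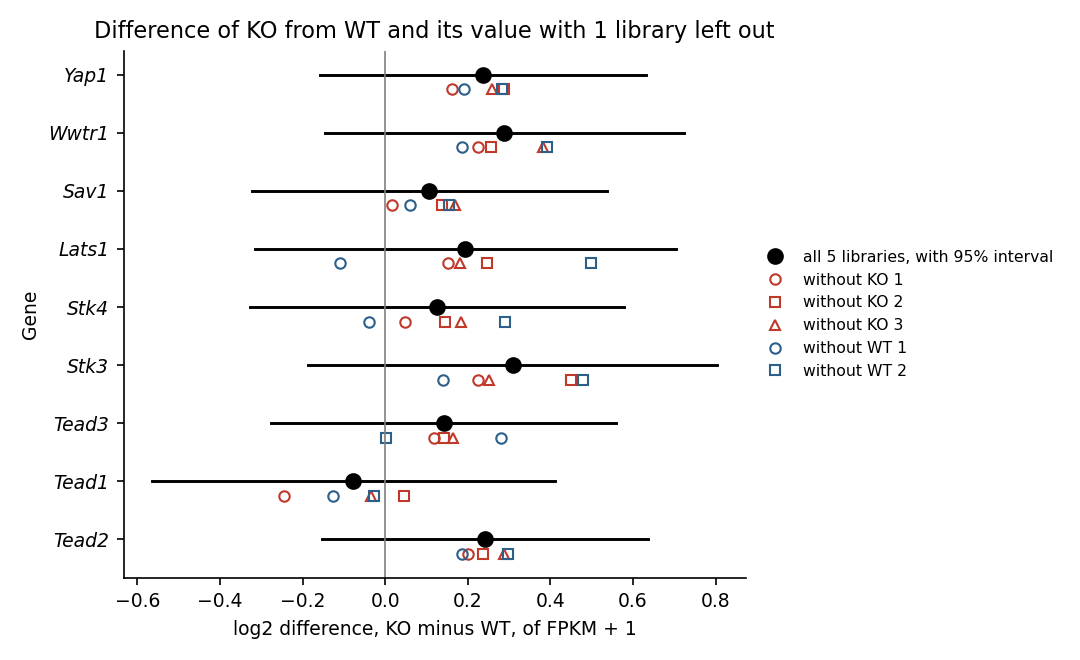
Log2 difference of KO minus WT on the scale of FPKM + 1 for the 9 members tested (black points) with the 95% interval of the limma fit (black lines), and its value with each library left out (open symbols below each line). Every interval includes 0, and Lats1 moves from -0.11 without WT 1 to 0.50 without WT 2.

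KO 1 was the highest of the 5 libraries for 9 of the 10 members, the exception being Lats1, and WT 1 was the lowest for 7. Over all genes tested, KO 1 was the highest library for 31.45% and WT 1 the lowest for 46.4%. The same libraries lay at the ends of the typical level of a gene, with median-ratio factors of 1.10 for KO 1, 0.987 for KO 2 and 0.977 for KO 3, and 0.884 for WT 1 and 1.08 for WT 2. After division by these factors, Yap1 was at 15.7, 14.6 and 15.4 in KO and at 14.3 and 12.5 in WT, and the lack of overlap held for Yap1 and Tead2 and was found for Wwtr1 also. Wwtr1 was then at 7.71, 8.20 and 6.80 in KO and at 6.38 and 6.14 in WT. The share of all genes tested without overlap after this scaling is not given here, so the members cannot be set against it. The log2 difference of Yap1 was 0.18 and that of Wwtr1 0.24 with this scaling, and no member passed (limma adjusted p of 1.0 for each). After the division KO 1 was the highest library only for Yap1, Tead1, Tead4, Stk4 and Sav1. WT 1 was then the lowest only for Lats1, Stk3 and Stk4. The part of this typical level in the values of KO 1 and WT 1 was not tested.

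**Figure D4:**
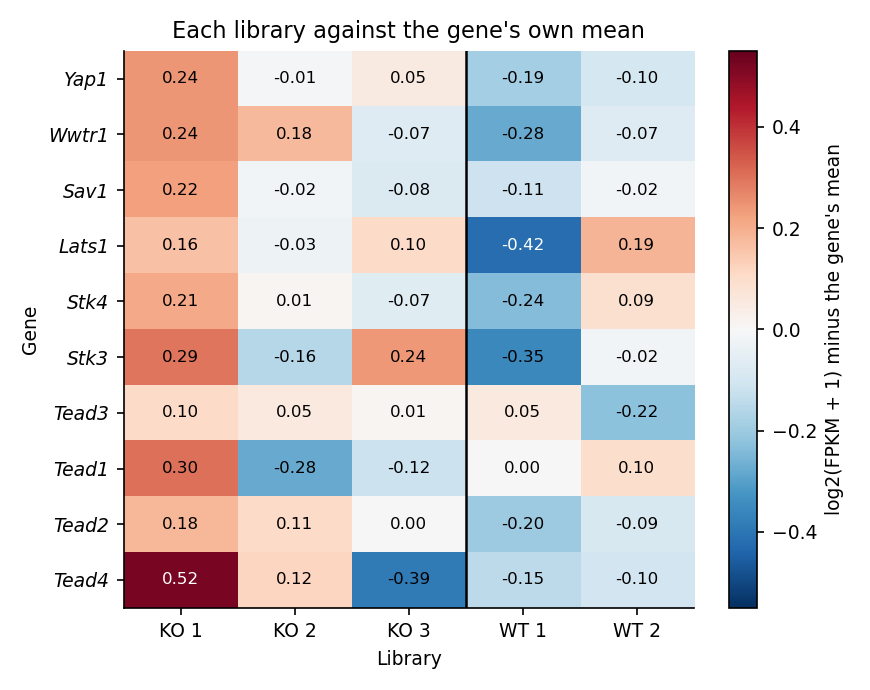
Deviation of each library from the gene's own mean over the 5 libraries, in log2(FPKM + 1), with KO left of WT and red for higher values. The KO 1 column is positive for all 10 genes, and the WT 1 column is below 0 for all but Tead3.

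Cells other than hepatocytes also express Hippo genes, and in whole tumours fewer cells of a type and less RNA per cell cannot be told apart. Markers of stellate cells and fibroblasts summed to 99.2 to 148.5 FPKM in KO and 84.7 to 116 FPKM in WT, with a higher KO mean for 7 of 9. Endothelial markers summed to 61.8 to 90.6 FPKM in KO and 58.4 to 67.8 FPKM in WT, with a higher KO mean for 6 of 7. Both sums were highest in KO 1, as was the erythroid sum, and 9 of the 10 members were highest in that library. The macrophage and Kupffer cell sum was highest in KO 3. The cholangiocyte and the B and plasma cell sums were highest in WT 2, and the hepatocyte and the T and NK cell sums in WT 1. KO 1 also had the largest median-ratio factor. Cholangiocyte markers summed to 154 to 348 FPKM in KO and 149.8 to 423 FPKM in WT (5 of 6 higher), most of it from Spp1, while Krt19, which defines the bile duct, was at 1.05 to 1.81 FPKM in KO and 0.61 to 1.56 FPKM in WT. Macrophage and Kupffer cell markers summed to 43.0 to 79.3 FPKM in KO and 48.9 to 69.0 FPKM in WT (5 of 6 higher).

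Erythroid markers summed to 312 to 522 FPKM in KO and 243 to 490.5 FPKM in WT (3 of 4 higher). Markers of T and NK cells were close to 0, summing to 0.93 to 1.79 FPKM in KO and 1.86 to 4.2 FPKM in WT (5 of 5 lower). B and plasma cell markers summed to 25.9 to 73.2 FPKM in KO and 90.6 to 241 FPKM in WT (3 of 5 lower), most of it from Igkc and Jchain. Cd79b and Ms4a1 had the higher mean in KO and Cd79a the lower, all at low levels. Hepatocyte markers summed to 101000 to 101700 FPKM in KO and 90210 to 118100 FPKM in WT, with a higher KO mean for 2 of 6. Among them Ttr, the thyroid hormone carrier transthyretin, was at 2353 to 2604 FPKM in KO and 2955 to 4216 FPKM in WT, and so was lower in every KO library. No marker of T and NK cells reached the mean of 1 FPKM needed for the test, and those tested were 2 of 5 for B and plasma cells, 4 of 6 for cholangiocytes, 3 of 4 for erythroid cells and all of the other lists. None of the markers tested passed, and none of the 8 lists held a marker at 0 in all libraries. Their part in the values of the Hippo genes was not tested.

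Around the members, 4 lists of other pathway genes likewise held no gene past the threshold in either direction (limma adjusted p of 0.999 for the lowest in each list). Of 24 other core and upstream genes, 22 were tested, with 18 higher and 4 lower means on the log2 scale in KO, and the median log2 difference was 0.16. The median over the 9 members was 0.19 and over all genes tested 0.051, with 61.4% of all genes tested above 0. Rassf1, a scaffold protein that binds the STK kinases, was at 4.43, 4.57 and 3.27 FPKM in KO and at 2.56 and 2.70 FPKM in WT (log2 difference 0.48). Frmd6, an upstream activator of the kinases, had a log2 difference of 0.44 and Tjp1, a tight junction protein, of 0.36. Lats2 had a difference of 0.33, and Stk38, a kinase related to LATS, of 0.30. Rassf1, Tjp1, Lats2 and Stk38 were among the 6 of the 22 genes tested in this list whose KO libraries all lay above WT. The same held for 9.78% of all genes tested.

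Negative regulators of the kinases, of YAP or of TEAD numbered 24, of which 22 were tested, with 19 higher and 3 lower and a median log2 difference of 0.12. Amotl2, an angiomotin that binds and retains YAP, was at 8.42, 7.93 and 6.61 FPKM in KO and at 4.84 and 5.31 FPKM in WT (log2 difference 0.51), which did not overlap. Ajuba, a LIM protein that inhibits LATS, was at 9.27, 8.75 and 3.43 FPKM in KO and at 5.85 and 2.70 FPKM in WT, and so overlapped. Members of the complex that inhibits the STK kinases were Strn3 with a log2 difference of 0.42, Slmap with 0.34 and Sike1 with 0.31. Of 12 TEAD cofactors other than YAP and TAZ, 7 were tested, 5 higher and 2 lower, with a median of 0.16. Among them Jun, an AP-1 factor, was at 8.55, 27.8 and 9.36 FPKM in KO and at 6.71 and 7.78 FPKM in WT, with KO 2 alone high. Fos, another AP-1 factor, had a log2 difference of 0.29, and the coactivators Ncoa3 and Ncoa2 of 0.16 and 0.13.

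Of 22 target genes of YAP and TAZ, named from a signature of human cells, 16 were tested, 12 higher and 4 lower, with a median log2 difference of 0.27. Nt5e, the ectoenzyme CD73, was at 4.64, 5.47 and 4.19 FPKM in KO and at 2.76 and 2.67 FPKM in WT. Igfbp3, which binds insulin-like growth factors, was at 35.9, 19.2 and 21.3 FPKM in KO and at 17.2 and 14.8 FPKM in WT. The secreted proteins Ccn1 and Ccn2 had log2 differences of 0.74 and 0.52, and Amotl2 and Lats2 belong to this list too. In 7 of the 16 target genes tested every KO value exceeded both WT values, against 9.78% of all genes tested. Without WT 1 the target genes were 8 higher and 8 lower, with a median of -0.020, and without WT 2 they were 16 higher and 0 lower, with a median of 0.44. Each of these settings rests on 1 WT library. Over all genes tested, 39.75% had a difference above 0 without WT 1, with a median of -0.066. Without WT 2 the share was 73.7% and the median 0.16. The core and upstream genes were 12 higher and 10 lower without WT 1 (median 0.035), as were the negative regulators (median 0.010). Without WT 2 both lists were 20 higher and 2 lower, with medians of 0.36 and 0.18. The negative regulators were 13 higher and 9 lower without KO 1, with a median of 0.019. In that setting 53.8% of all genes tested had a difference above 0. The median of the TEAD cofactors was 0.084 without KO 1, 0.26 without KO 3 and 0.29 without WT 2. After median-ratio rescaling the core and upstream genes were 15 higher and 7 lower, as were the negative regulators, and 50.6% of all genes tested had a difference above 0. Quantile normalization gave 15 and 13 higher for these lists and 52.4% for all genes.

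**Figure D5:**
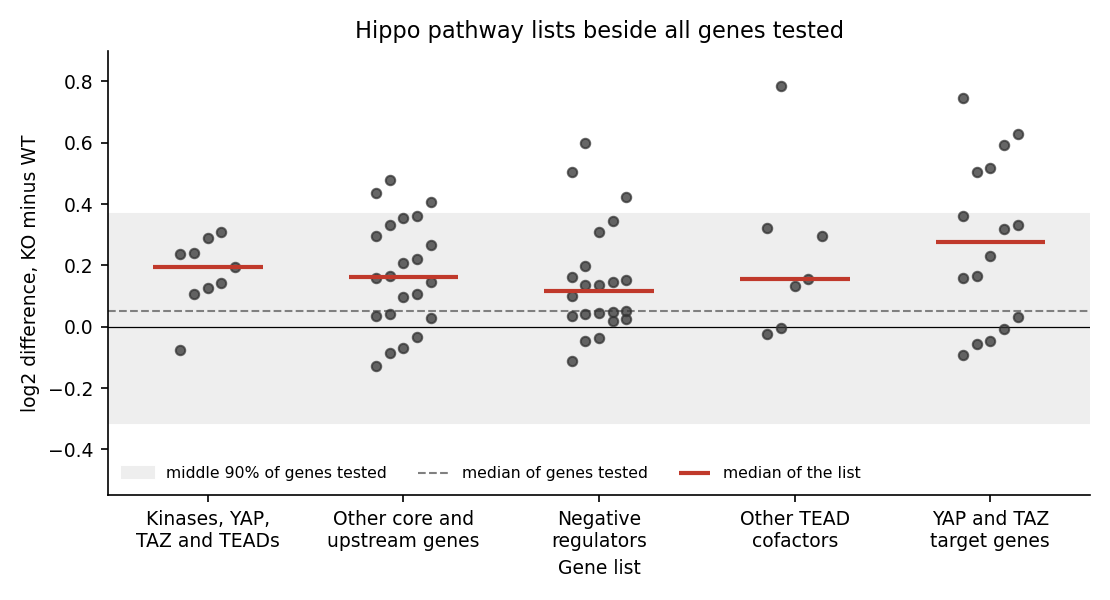
Log2 difference of KO minus WT for every gene tested (points) of the members and of 4 Hippo pathway lists, with the median of each list in red, beside the middle 90% (grey band, -0.31 to 0.37) and the median (dashed line, 0.051) of all genes tested. All 9 members lie inside the band.

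The genes whose pattern over the 5 libraries was nearest to that of Yap1 were sought by the root mean square difference of centred log2(FPKM + 1) values, among 6883 genes that varied at least as much. They were Trak2, a kinesin adaptor of mitochondria (0.025), Endov, a nuclease for inosine in nucleic acids (0.031), Parp14, a mono-ADP-ribosyltransferase (0.031), Mmp14, a membrane metalloprotease (0.032), and Crebl2, a leucine zipper protein (0.033). Mmp14 was at 32.1, 27.5 and 26.7 FPKM in KO and at 23.4 and 24.8 FPKM in WT. It was highest in KO 1 like Yap1, which comes with its choice by likeness to Yap1 over these same libraries. KO 1 was the highest library for 31.45% of all genes tested. Among the members tested, whatever their spread, Tead2 was nearest to Yap1 at 0.062, and 1.43% of all genes tested were as near. Tead2, Tead3 and Sav1 varied less than Yap1 and so were not among the 6883 genes. Adding 1 to FPKM also narrows the spread of low genes such as Tead2. Sav1 was at 0.076, and Tead1 was the farthest of the members tested at 0.187, a distance within which 43.2% of all genes tested lay.

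In the authors' deposited table, which rests on the same libraries, the log2 fold change of KO over WT is above 0 for 9 members. That table gives 0.26 for Yap1, 0.33 for Wwtr1, 0.42 for Stk3, 0.44 for Tead2 and 0.53 for Tead4, and -0.097 for Tead1. The smallest p-value of a member in the authors' deposited table is 0.167 for Wwtr1, and every member has a false discovery rate of 0.9999. The same table has a rate under 0.05 for 36 of 22287 genes (0.162%), none of them a member.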

How the data were processed

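RNA of 3 KO and 2 WT tumours was sequenced on Illumina libraries after Trizol extraction, per the labels' protocols. The build mm10 and the tools HISAT2, StringTie, bcl2fastq 2.0, limma and DESeq2 are listed, without roles, in the submitters' processing notes; annotation and strand setting are not stated there. The deposited values are FPKM per library, rounded by the authors to 2 decimals, and per the file headers the authors also gave each gene a log2 fold change, a p-value and a false discovery rate, by a test that no header or label names. Gene positions are from GENCODE release M21 (GRCm38, the assembly of mm10), which holds 22253 of the 22287 identifiers.

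Groups came from the sample titles. Values were taken as log2(FPKM + 1), and genes with a mean of at least 1 FPKM were tested by limma 3.58.1 in R 4.3.3 (empirical Bayes with a trend, 3 residual degrees of freedom, two-sided), with Benjamini-Hochberg adjustment over all 10132 genes. Log2 differences are KO minus WT and understate changes of low genes, and intervals are unadjusted. The fit was tested on simulated data. Reads shared between paralogs could not be checked.

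The members and lists were chosen with earlier results of these data known. All 10 members are named, up to 5 genes per list by the smallest unadjusted p, and the 5 genes nearest to Yap1, predicted and clone-named genes left out. A TEAD cofactor that this rule names is not reported here. The alternatives were other pseudocounts, filters and scalings, no trend, a replicate block and leaving out each library. Figures were drawn with matplotlib 3.10.9.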

Additional observations from a re-analysis of the deposited data

How the results depend on the processing

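No member passed the threshold (limma adjusted p under 0.05) in any alternative that kept both WT libraries. Leaving out WT 1 or WT 2, also among the 14 alternatives, leaves 1 WT library, so only log2 differences are given for these fits. Of 119 log2 differences of the 9 members tested, 116 kept their direction. The exceptions were Tead1 without KO 2 (0.046), and Lats1 (-0.11) and Stk4 (-0.039) without WT 1. The cause was not tested. The other filters and the fit without a trend cannot change a log2 difference, and the replicate block repeats the values without KO 3. Fewer than 119 values were therefore free to differ. With 1 library left out, Tead1 ran from -0.24 to 0.046, Lats1 from -0.11 to 0.50 and Stk4 from -0.039 to 0.29. The log2 difference of Yap1 ran from 0.16 to 0.29. The count of all genes past the threshold was 1, and 0 with a pseudocount of 5, with no expression filter, with a mean FPKM of at least 5, with rescaling to a common sum, with median-ratio rescaling and with quantile normalization; the cause was not tested. With 1 library left out, 0 to 17 genes passed, the 17 without WT 1. With the replicate number as a block, 62 genes and 0 members passed, and Yap1 was at 0.26. No WT library shares the number of KO 3, so KO 3 adds nothing to the differences of that fit. Fewer residual degrees of freedom than the 3 of the main fit were left. Nothing in the labels says that equal numbers pair samples, so they were not taken as pairs. Deviations from the group means correlated across genes at r = 0.0884 for KO 1 and WT 1 and at r = -0.241 for KO 2 and WT 2. With 2 WT libraries, the deviations of WT 1 and WT 2 mirror each other, so these values cannot decide on pairing. With 3 and 2 libraries, the 95% intervals of the members reached from a ratio of 0.676 (Tead1) to 1.75 (Stk3). Their median half-width was 0.43 on the log2 scale, so that smaller differences would lie within an interval that includes 0. Median-ratio rescaling and quantile normalization moved Sav1 to 0.056 and 0.045, Stk4 to 0.080 and 0.054, and Tead1 to -0.12 and -0.14, and quantile normalization moved Tead3 to 0.067.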
